A study of Mus musculus with 2 samples.

Results

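The proneural basic helix-loop-helix (bHLH) factors described here are the 9 genes Atoh1, Neurog1, Neurog2, Neurod1, Neurod2, Neurod4, Ptf1a, Olig2 and Olig3, taken by gene symbol from the 32285 genes counted. They were followed by single-cell RNA sequencing through GFP+ cells sorted from mouse heads at E11.5, a mid-gestation stage, in 1 control and 1 mutant library that each pooled 2 embryos. Control embryos carried the genotype Tfap2a wt/flox with Tfap2b wt/flox, whereas mutant embryos were flox/flox at both genes. All embryos of both groups were Wnt1CRE+ and homozygous for r26 mTmG, a reporter that turns on membrane GFP after recombination. All were kept on a mixed background. The control cells thus also carried Cre and 1 floxed allele of each Tfap2 gene. Tfap2a and Tfap2b encode AP-2 transcription factors of the neural crest, and Wnt1:CRE recombines in premigratory crest as well as in parts of the dorsal neural tube, so a GFP+ sort of heads also holds brain cells.

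Proneural bHLH proteins pair with ubiquitous E proteins, bind E-box motifs and commit dividing progenitors to the neuronal fate, while the Notch ligands they induce hold neighbouring cells back. Atoh1 acts in the rhombic lip and its derivatives, Neurog1 and Neurog2 start neurogenesis in the brain and in the cranial sensory ganglia, and Neurod1, Neurod4 and Neurod2 act later in differentiating neurons. Ptf1a directs dorsal progenitors to inhibitory fates, Olig3 marks dorsal progenitor domains of the hindbrain and spinal cord, and Olig2 marks ventral progenitors of motor neurons and oligodendrocytes.

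The control library held 6148 barcodes with 83542433 unique molecular identifiers (UMIs, 1 per captured transcript) and the mutant library 6063 barcodes with 79206144 UMIs. After the filter of the study, 5625 control and 5587 mutant cells were kept, with a median of 13478 and 12234 UMIs per cell, and 6 barcodes occurred in both libraries. Clustering without the 9 genes gave 4 classes that carried their defining markers: 3757 control and 2813 mutant mesenchyme-like cells, 765 and 1241 brain progenitor-like cells (Sox2, Hes5, Otx2), 843 and 1335 neuron-like cells (Stmn2, Tubb3, Elavl3) and 260 and 198 glia-like cells (Sox10, Erbb3). A sort labelled as cranial neural crest cells therefore contained 28.6% and 46.1% brain progenitor-like and neuron-like cells in the control and mutant libraries. The brain progenitor-like and neuron-like classes are called brain classes below, although the latter also held 69 sensory ganglion neuron-like cells over both libraries. The glia-like class was mixed. By a finer clustering described below, sensory ganglion neuron-like cells made up 29.6% of it in the control and 3.54% in the mutant library. Xist was at 1212 to 1451 CPM (UMIs of a gene scaled to a common class total, not to gene length) over the classes of the control library and at most 0.131 CPM in the mutant library, and 4 Y-linked genes together showed the reverse, at most 0.107 CPM against 150 to 163 CPM, so genotype, sex and library cannot be told apart. Tfap2a was counted in glia-like cells at 78.1 CPM in the control and 120 CPM in the mutant library, and Tfap2b at 234 and 197 CPM. Counts per gene do not separate intact from recombined transcripts, and recombination was not measured here. With 1 library in each group no test between genotypes was possible, so differences are given with 95% intervals that cover counting error only, and a difference is called when it reaches 1.5-fold.

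Start sites of all 9 genes were found in RefSeq (build GRCm38.p6). Stretches from 180 bases before to 20 bases after the start are shown for the neurogenins, Neurod1 and Neurod4. Of these, Neurog1, Neurod1 and Neurod4 were all lower in the mutant than in the control glia-like cells. Capitals mark the longest run shared by the Neurog1 and Neurog2 windows, 11 bases at positions -7 to 4 counted from the start in both genes. Of 32851 RefSeq windows 2 contained it. The run was picked from the Neurog1 and Neurog2 windows, so 2 was the lowest count possible. Whether such a run is uncommon was not tested. Neurog1 lies at chr13:56252161-56252360 on the minus strand, Neurog2 at chr3:127632956-127633155 on the plus strand, Neurod1 at chr2:79456617-79456816 on the minus strand and Neurod4 at chr10:130280235-130280434 on the minus strand.
Neurog1: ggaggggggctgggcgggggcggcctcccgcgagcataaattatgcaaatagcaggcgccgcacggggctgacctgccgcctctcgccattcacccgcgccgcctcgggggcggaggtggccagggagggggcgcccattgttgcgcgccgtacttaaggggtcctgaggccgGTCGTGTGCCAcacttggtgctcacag
Neurog2: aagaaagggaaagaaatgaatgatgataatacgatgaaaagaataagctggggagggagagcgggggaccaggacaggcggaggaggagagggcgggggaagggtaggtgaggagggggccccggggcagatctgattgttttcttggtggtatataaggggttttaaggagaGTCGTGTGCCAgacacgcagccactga
Neurod1: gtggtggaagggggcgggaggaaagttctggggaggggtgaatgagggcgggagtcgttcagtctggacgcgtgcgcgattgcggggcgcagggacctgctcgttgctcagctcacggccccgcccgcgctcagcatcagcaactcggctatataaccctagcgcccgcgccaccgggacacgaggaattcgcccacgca
Neurod4: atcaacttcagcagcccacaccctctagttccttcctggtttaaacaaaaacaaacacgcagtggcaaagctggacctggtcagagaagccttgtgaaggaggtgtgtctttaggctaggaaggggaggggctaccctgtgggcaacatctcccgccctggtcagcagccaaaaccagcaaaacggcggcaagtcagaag
In windows of 250 bases before to 50 after the start, searched on both strands, the E-box CAGATG was present at Neurod2 only and the E-box CAGCTG at a downstream start of Neurod4 only, against 17.2% and 16.3% of all windows. The AP-2 motif GCCNNNGGC was found in the window of Ptf1a only, against 16.6% of all windows, and TATAAA in those of Olig2 and Olig3, against 13.6%. These letters are a description of the windows and no site was measured. By the GENCODE M21 annotation of GRCm38, the genes lie at chr6:64729125-64731245 (Atoh1), chr13:56250478-56252163 (Neurog1), chr3:127633135-127635631 (Neurog2), chr2:79452521-79456751 (Neurod1), chr11:98325415-98329648 (Neurod2), chr10:130268152-130280240 (Neurod4), chr2:19445663-19447501 (Ptf1a), chr16:91225457-91228677 (Olig2) and chr10:19356533-19358604 (Olig3). All 9 are protein-coding genes with 1 transcript of 1 or 2 exons, and the GENCODE gene of Neurod1 reaches further upstream than the RefSeq start, so part of its stretch above lies inside the gene by that annotation. Neurod1 overlaps Cerkl on its own strand and Gm26755 on the opposite strand, and Ptf1a overlaps Ptf1aos on the opposite strand, so reads of the Neurod1 and Cerkl overlap are of uncertain origin.

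Across the classes, all 9 genes were at 1.80 CPM or less in mesenchyme-like cells, which were taken as the background. Few of those cells held most of their Atoh1, Neurog1 and Neurog2 UMIs, as given below. The neural classes shared several members, at levels that differed by class and library. In the control library Atoh1 was at 118 CPM (95% interval 111 to 125) in neuron-like cells, 23.3 CPM (20.4 to 26.6) in brain progenitor-like cells, 1.58 CPM (0.683 to 3.12) in glia-like cells and 0.738 CPM (0.534 to 0.994) in mesenchyme-like cells. In the mutant library the same classes held 88.4 CPM (83.7 to 93.3), 20.2 CPM (18.0 to 22.6), 0.313 CPM (0.00792 to 1.74) and 1.59 CPM (1.24 to 2.01). Atoh1 thus followed neuron-like over progenitor-like cells in both libraries, with intervals that did not overlap, while its glia and mesenchyme levels could not be ordered.

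**Figure D1:**
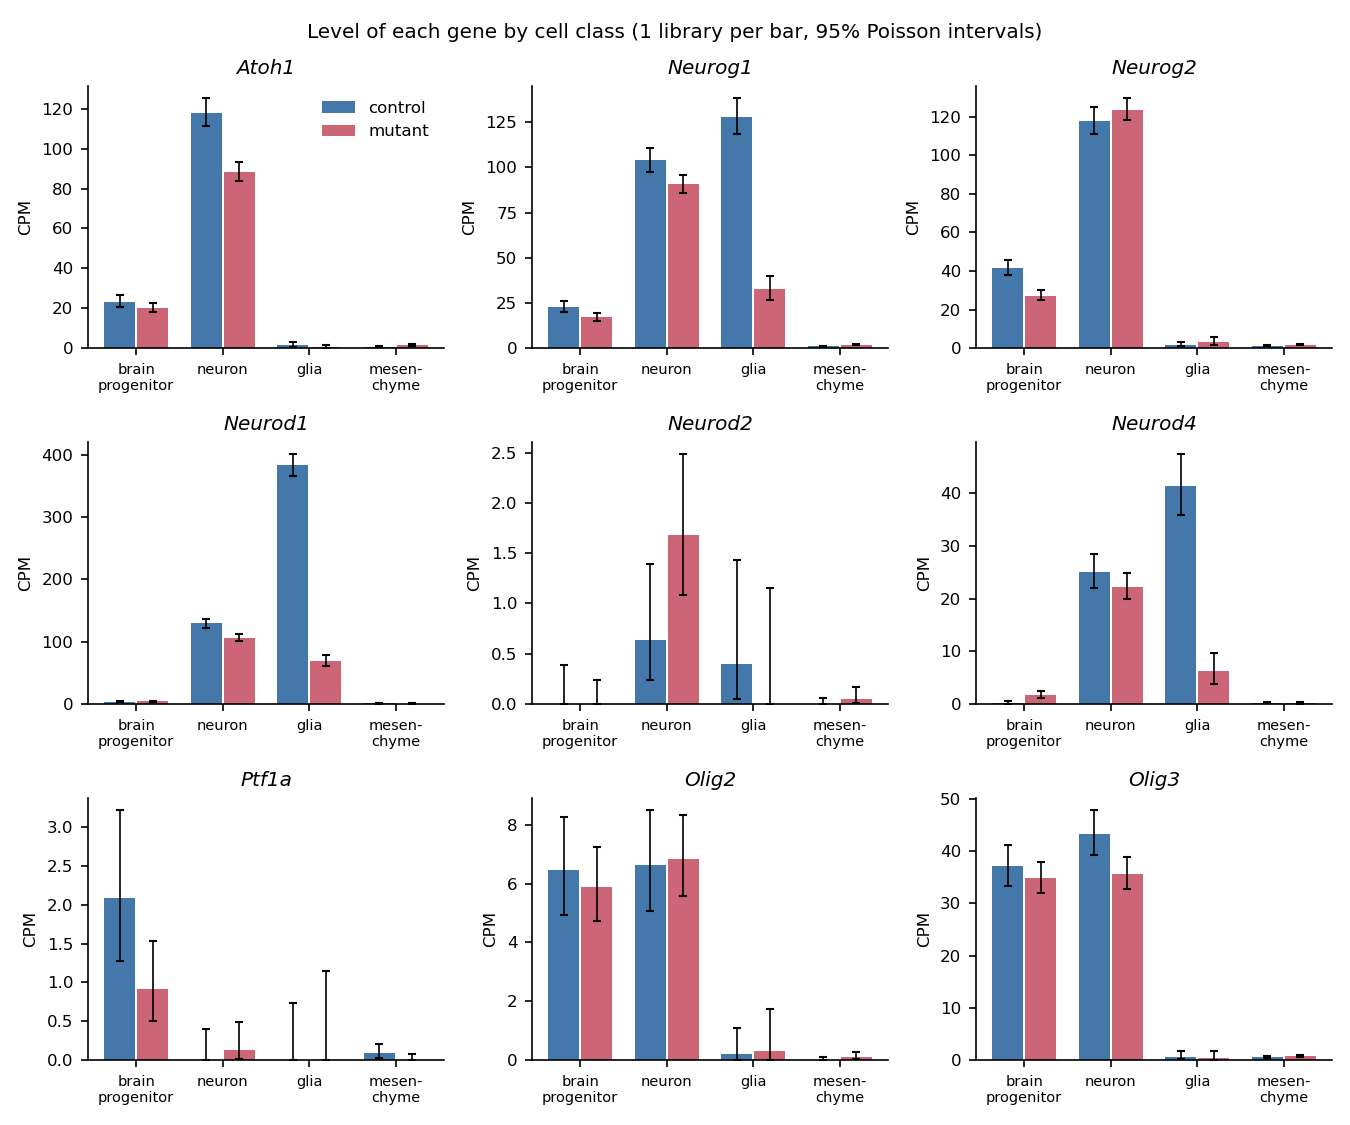
Level of each gene in CPM (vertical axis, from 0, own scale per gene) in 4 cell classes of the control (blue) and mutant (red) library, with 95% Poisson intervals as error bars. Neurod1, Neurog1 and Neurod4 are high in control glia-like cells and low in mutant ones, whereas the brain classes of the libraries lie closer together.

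Olig3 was shared nearly evenly between the brain classes, at 37.1 CPM in control and 34.8 CPM in mutant progenitor-like cells and 43.4 and 35.7 CPM in neuron-like cells. Olig2 was lower in both, at 6.46 and 5.89 CPM in progenitor-like cells and 6.62 and 6.86 CPM in neuron-like cells, with overlapping intervals. Both Olig genes had at most 3 UMIs in the glia-like cells of either library, so neither was detectable above background there at this depth. Ptf1a and Neurod2 were at the edge of detection. Ptf1a had 25 UMIs in all control and 16 in all mutant cells, of which 20 and 14 were in progenitor-like cells, and 0 of 843 control neuron-like cells had a Ptf1a UMI, which allows a share of up to 0.356% of cells with a UMI. Neurod2 had 8 and 27 UMIs, 6 and 25 of them in neuron-like cells, and none of the 765 control and 1241 mutant progenitor-like cells had a UMI, which allows up to 0.392% and 0.242% of cells with a UMI. These are limits on cells with a UMI, not on cells that express the gene.

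The neurogenins, Neurod1 and Neurod4 were each detected in more than 1 in 10 neuron-like cells of both libraries. In control neuron-like cells 41.2% had a Neurod1 UMI (37.8 to 44.6), 23.6% Neurog1 (20.8 to 26.6), 21.6% Neurog2 (18.9 to 24.5) and 13.5% Neurod4 (11.3 to 16.0). The mutant neuron-like cells gave 39.6%, 22.3%, 20.1% and 10.9% at a median depth of 9612 UMIs against 9586 in the control. For comparison, mesenchyme-like cells, which were taken as the background, held a UMI of any of them in 0.213% to 1.14% of cells. They were deeper, at a median of 14568 and 14471 UMIs. After thinning every cell to 5000 UMIs the control shares became 29.8%, 19.8%, 19.1% and 9.25%, and the mutant shares 29.7%, 17.6%, 17.1% and 8.03%. All 4 genes were far above the background share in neuron-like cells of both libraries, and for each gene the intervals of the 2 libraries overlapped.

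Sub-clusters of the cells outside the mesenchyme-like class placed each gene more closely. Sub-cluster 2, cells of the neuron-like class led by C1ql3, Lhx9, Barhl1 and Evx1, held 76.5% (control) and 69.2% (mutant) of all Atoh1 UMIs, at 486 CPM (457 to 516) and 395 CPM (373 to 419). Lhx9 and Barhl1 are homeobox genes of neurons that descend from Atoh1 progenitors. Sub-cluster 4, brain progenitor-like cells led by Msx3, Casz1 and Wnt3, a dorsal signature, was the next, at 103 CPM (87.3 to 120) and 118 CPM (104 to 134). The same 2 sub-clusters, in reverse order, held most of Olig3, at 204 CPM (182 to 228) and 236 CPM (216 to 257) in sub-cluster 4 and 100 CPM (87.5 to 115) and 91.7 CPM (81.1 to 103) in sub-cluster 2. Atoh1 was thus highest in the neurons and Olig3 in the progenitors of the dorsal cells, in both libraries. Sub-cluster 4 also held 19 of the 25 control and 14 of the 16 mutant Ptf1a UMIs.

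Neurog2 was highest in sub-cluster 6, neuron-like cells led by Syt4, Sim1, Foxa2 and Nr4a2, at 527 CPM (480 to 578) in the control and 576 CPM (539 to 615) in the mutant library. Foxa2 and Nr4a2 are known from ventral midbrain neurons that include the dopamine lineage. Sub-cluster 1, cells of the neuron-like class led by Otp, Robo3 and Nefm, came next for Neurog2 at 144 and 123 CPM and was the main brain place of Neurog1, at 211 CPM (197 to 226) and 166 CPM (156 to 176). Neurod1 was at 231 CPM in sub-cluster 6 and 217 CPM in sub-cluster 1 of the control library, neighbours whose intervals overlapped, and at 236 and 148 CPM in those of the mutant library, where they did not. Over all sub-clusters the order for Neurod1 was glia-like sub-cluster 3 (382 CPM, 366 to 400) above both in the control library, and sub-clusters 6 and 1 above sub-cluster 3 (69.4 CPM, 60.6 to 79.2) in the mutant library. At the finer step, 156 control and 184 mutant Olig3 UMIs lay in finer sub-cluster 9, led by Otp, Lhx1 and Robo3, at 168 and 150 CPM. Olig2 was highest in sub-cluster 5, led by genes that include Nkx2-1 and Shh, known from the ventral forebrain, at 34.4 CPM (24.5 to 47.1) in the control and 59.9 CPM (47.4 to 74.6) in the mutant library. The inhibitory brain neuron-like cells (Pnoc, Tal1, Gad2) of sub-cluster 8, which numbered 45 and 141, held at most 17 UMIs of any of the 9 genes in a library, and the choroid plexus-like cells of sub-cluster 9 at most 7.

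**Figure D2:**
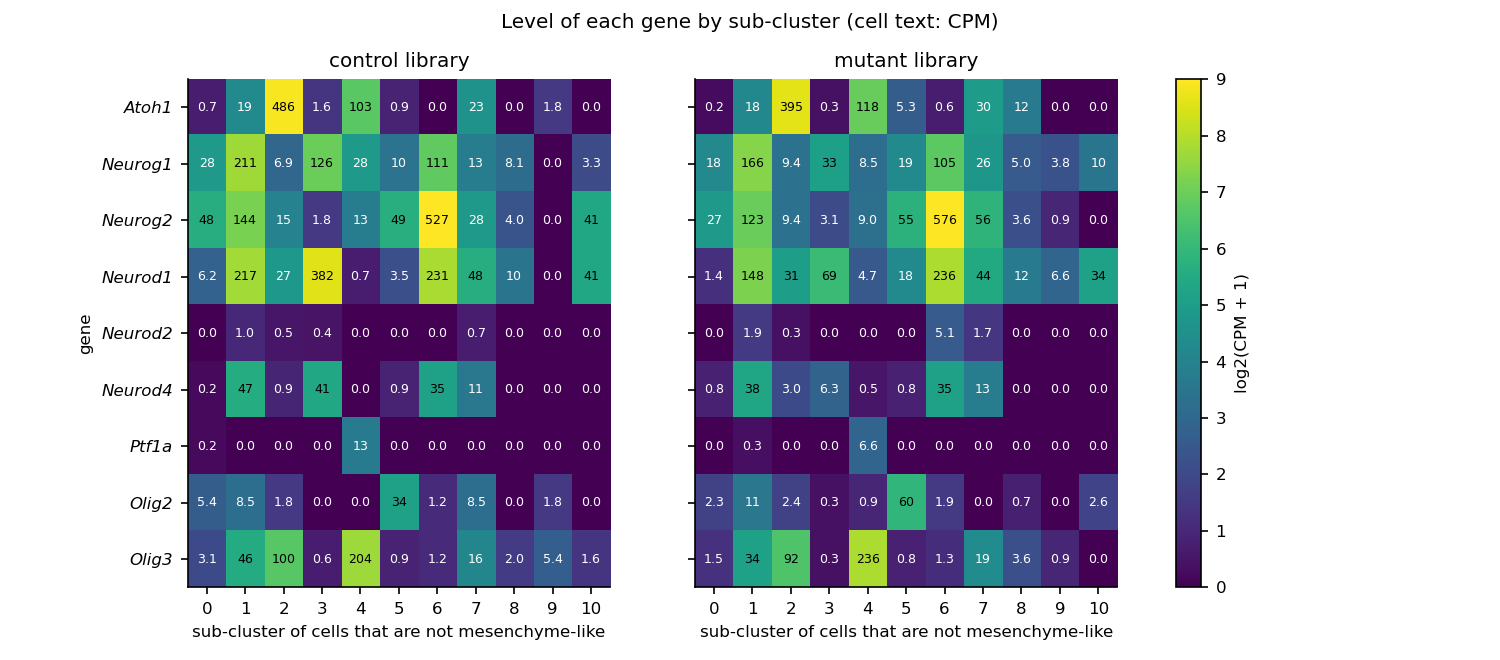
Level of each gene (rows) in 11 sub-clusters of the cells that are not mesenchyme-like (columns, numbered as in the text) of the control (left) and mutant (right) library, as colour on a log2(CPM + 1) scale with the CPM written in each cell. Atoh1 and Olig3 share sub-clusters 2 and 4, Neurog2 peaks in sub-cluster 6, Olig2 in sub-cluster 5, and the glia-like sub-cluster 3 stands out for Neurod1 in the control library at 382 CPM against 69.4 CPM in the mutant library.

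Among members with at least 100 UMIs in a class, the largest differences between the libraries were in glia-like cells. Neurod1 had 1937 UMIs, 383 CPM (366 to 401), in the control and 222 UMIs, 69.4 CPM (60.6 to 79.2), in the mutant glia-like cells. Neurog1 had 647 UMIs, 128 CPM (118 to 138), against 105 UMIs, 32.8 CPM (26.9 to 39.7), and Neurod4 had 209 UMIs, 41.3 CPM (35.9 to 47.3), against 20 UMIs, 6.25 CPM (3.82 to 9.66). These genes of sensory neurogenesis were all lower in the mutant library, 5.52-fold for Neurod1 (log2 ratio -2.46, interval -2.67 to -2.26), 3.90-fold for Neurog1 (-1.96, -2.27 to -1.66) and 6.61-fold for Neurod4 (-2.72, -3.47 to -2.06). The sizes depended on few mutant cells, since 10 mutant and 90 control cells held 5 or more Neurod1 UMIs. Leaving out the 5 highest cells of each library thus removed a larger part of the mutant ones. The log2 ratios then became -4.26 for Neurod1, -2.79 for Neurog1 and -5.14 for Neurod4, in the same direction. They were the 3 members with at least 100 UMIs in this class and all 3 were called lower, where 5.00% of the 8018 genes with that many UMIs were called lower and 6.27% higher. The median log2 ratio of the 3 was -2.46, beside 0.03 over all genes tested. Neurog2, the other neurogenin, had 9 and 10 UMIs in these cells, so its level was near that of the mesenchyme-like cells and its direction was not resolved (interval -0.64 to 2.29).

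**Figure D3:**
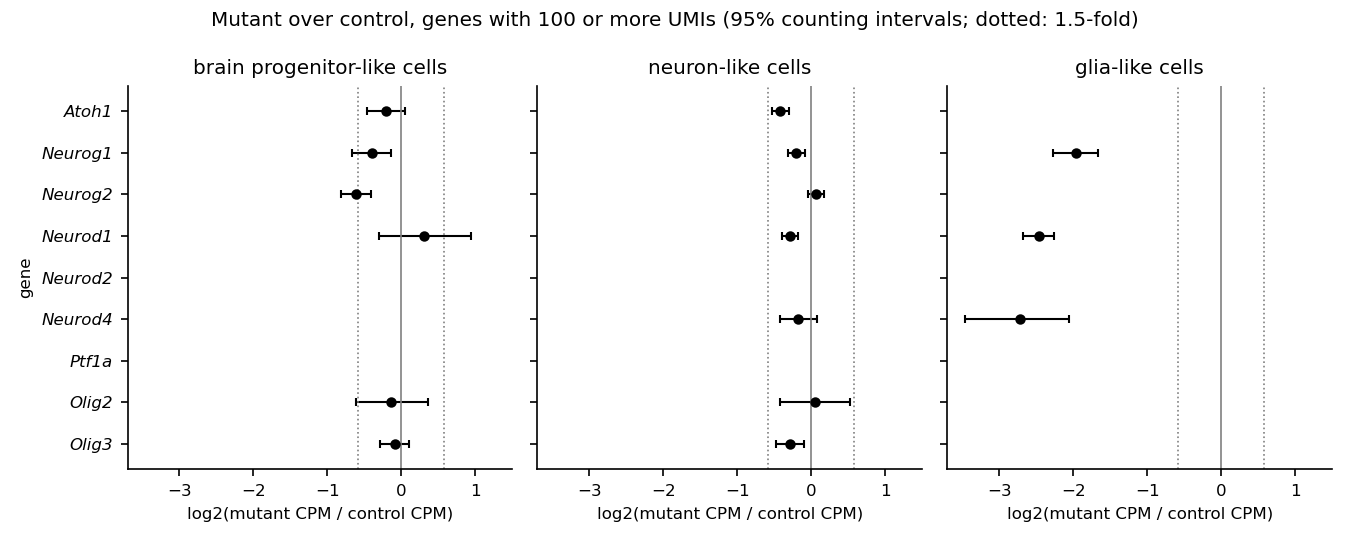
Log2 ratio of mutant over control CPM (horizontal axis) of the genes with at least 100 UMIs (vertical axis) in brain progenitor-like, neuron-like and glia-like cells, with 95% counting intervals as bars and 1.5-fold differences as dotted lines. Neurod1, Neurog1 and Neurod4 lie near -2.46, -1.96 and -2.72 in glia-like cells. In brain progenitor-like and neuron-like cells all but Neurog2 in the former lie within 1.5-fold.

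Fewer mutant than control glia-like cells held a UMI of these genes. Of 260 control glia-like cells, 102 (39.2%, 33.3 to 45.5) had a Neurod1 UMI, against 12 of 198 mutant cells (6.06%, 3.17 to 10.3). Those cells had a median of 19.5 Neurod1 UMIs in the control and 15.5 in the mutant library, with a highest cell of 44 in both. Whether the amount per cell differed was not tested for any of the genes. Neurog1 was found in 47.7% and 15.7% of cells and Neurod4 in 25.8% and 3.54%. Thinned to 5000 UMIs per cell the shares were 36.8% and 6.09% for Neurod1, 34.9% and 9.14% for Neurog1 and 14.7% and 2.03% for Neurod4, so the difference was also present at equal depth, the unthinned medians being 17883 UMIs in control and 15221 in mutant cells. In mesenchyme-like cells the Neurod1 share was 0.772% and 0.711% and so far lower.

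**Figure D4:**
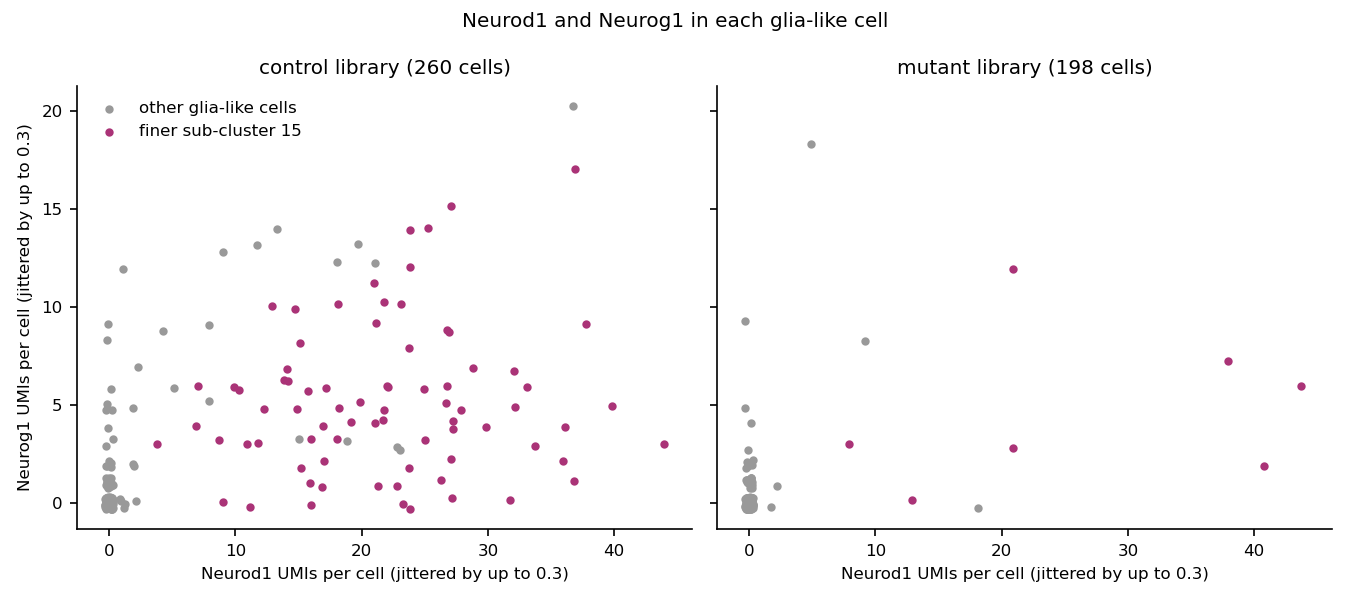
Neurod1 UMIs (horizontal axis) and Neurog1 UMIs (vertical axis) in each of 260 control (left) and 198 mutant (right) glia-like cells, 1 point per cell, moved at random by up to 0.3 so that points do not cover each other. Purple points are cells of finer sub-cluster 15, 77 of them in the control and 7 in the mutant library, and they carry most of the Neurod1 UMIs.

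When the clustering was made finer, the cells with most of the Neurod1 and Neurod4 UMIs of the class formed a group of their own. None of the 9 genes was used for it. That group held 402 of the 647 control Neurog1 UMIs of the class but 33 of the 105 mutant ones. At the next resolution step, sub-cluster 15, led by Isl1, Tlx2, Pou4f1 and Tlx3 and sensory ganglion neuron-like by its markers, held 78 control and 7 mutant cells, of which 77 and 7 belonged to the glia-like class and made up 29.6% and 3.54% of it. The remaining glia-like cells were 180 control and 191 mutant cells in finer sub-cluster 3, and 3 control cells in finer sub-cluster 8, of which 1 had 23 Neurod1 UMIs. In finer sub-cluster 15 Neurod1 was found in all 78 and all 7 cells, with 1715 and 186 UMIs, and the log2 ratio of its level was 0.42 (0.19 to 0.63), against -2.46 over the whole class. Neurog1, with 402 and 33 UMIs, was at 255 and 258 CPM there (interval of the log2 ratio -0.54 to 0.53), and Neurod4, with 208 and 17 UMIs, at 132 and 133 CPM (-0.80 to 0.72). Fewer cells of this kind were thus counted in the mutant library, and in the 7 that were the interval of the ratio lay above 0 for Neurod1 and included 0 for Neurog1 and Neurod4. Of those 7 cells 2 were called doublets, and their part was not tested.
In finer sub-cluster 3, Neurog1 had 225 UMIs in the control and 72 in the mutant library (log2 ratio -1.48) and Neurod1 223 and 36 (-2.47), in 51 and 25 cells and in 23 and 5 cells. Few cells carried these values. In the control library 13 of the 180 cells had 5 or more Neurod1 UMIs, and they held 208 of the 223 Neurod1 UMIs and 126 of the 225 Neurog1 UMIs. In the mutant library 3 of the 191 cells held 32 of the 36 Neurod1 UMIs and 26 of the 72 Neurog1 UMIs. The other 167 control and 188 mutant cells had 15 and 4 Neurod1 UMIs and 99 and 46 Neurog1 UMIs.

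Grouping the glia-like cells by their own Neurod1 UMIs, a split made after the values were seen, showed what else these cells held. The 90 control cells with 5 or more Neurod1 UMIs had Isl1, a homeobox gene of sensory and motor neurons, at 1242 CPM and Pou4f1, a sensory neuron factor, at 755 CPM, and Sox10, the glial factor, at 7.18 CPM. The 158 control cells without a Neurod1 UMI had the reverse, Isl1 at 11.3 CPM, Pou4f1 at 5.32 CPM and Sox10 at 307 CPM. The 10 mutant cells with 5 or more UMIs resembled the former in Isl1 at 989 CPM and Pou4f1 at 468 CPM, but had Sox10 at 101 CPM, and doublets were called in 30.0% of them against 2.22% of the 90 control cells, a part that was not tested. Prph, a gene of mature peripheral neurons, had 2 UMIs in the 90 control cells and 0 in the 10 mutant cells. Summed over the 7 neuron markers, the glia-like class was at 2125 CPM in the control and 345 CPM in the mutant library, and over the 7 measured sensory ganglion markers, of which 1 was at 0 in each library, at 910 and 164 CPM, in the direction of Neurod1. Summed over the 7 glia markers, none of them at 0, it was at 639 and 1038 CPM. A smaller number of sensory-like cells and less RNA per cell cannot be told apart in these class sums. Older sensory ganglion neuron-like cells, in sub-cluster 10 with Sncg, Scn9a and Mapt, numbered 26 and 43 and lay in the neuron-like class. In that sub-cluster Neurod1 was at 41.2 CPM (26.7 to 60.8) and 34.4 CPM (22.7 to 50.1).

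In the brain progenitor-like cells the 6 members with at least 100 UMIs were lower in the mutant library or had intervals that included 0. Neurog2 had 400 UMIs, 41.7 CPM (37.7 to 46.0), in the control and 416 UMIs, 27.2 CPM (24.7 to 30.0), in the mutant library. That is 1.53-fold lower (log2 ratio -0.61, interval -0.81 to -0.41), and Neurog2 was the single member called among the 6 with at least 100 UMIs, where 0.851% of 10574 genes were called lower and 1.28% higher. The median log2 ratio of the 6 was -0.17, beside -0.0046 over all genes tested. The call rested on few cells, since 48.8% of the control UMIs lay in 10 cells and the log2 ratio was -0.32, under 1.5-fold, without the 5 highest cells of each library. Neurog1 was at 22.7 and 17.2 CPM, 1.32-fold lower (-0.66 to -0.13 in log2), and Atoh1, Olig2, Olig3 and Neurod1 had intervals that included 0. Among the progenitors, sub-cluster 0, led by Hes5, Fam181a and Sox3, had Neurog2 at 48.2 and 27.4 CPM and Neurog1 at 27.8 and 17.8 CPM. At the finer step the difference was larger in finer sub-cluster 0 (Wfdc1, Fam181a, Hes5), where Neurog1 had 91 and 50 UMIs (log2 ratio -1.71, interval -2.24 to -1.20) and Neurog2 61 and 27 (-2.02, -2.73 to -1.35), than in finer sub-cluster 2, isthmic progenitor-like cells (Fgf17, Fgf8), where Neurog1 had a log2 ratio of 0.17 (-0.28 to 0.62) and Neurog2 of -0.41 (-0.69 to -0.14). In finer sub-cluster 13, midbrain progenitor-like cells led by Shh, Neurog1 was higher, with 6 and 25 UMIs (1.80, 0.48 to 3.38). The difference between these sub-clusters was not tested. Ptf1a and Neurod4 were under the minimum for a call. Ptf1a had 20 and 14 UMIs. Neurod4 was higher in the mutant library, with 1 and 26 UMIs (log2 ratio 4.03, interval 1.43 to 9.39), and 12 of the 26 were in 1 cell.

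In the neuron-like cells none of the 7 members with at least 100 UMIs differed by 1.5-fold, where 1.69% of 10788 genes were called higher and 1.24% lower. Atoh1 differed most, at 118 CPM in the control and 88.4 CPM in the mutant library, 1.34-fold lower (log2 ratio -0.42, interval -0.53 to -0.30). Neurod1 was 1.22-fold lower (-0.39 to -0.17), Olig3 1.22-fold lower (-0.47 to -0.09) and Neurog1 1.15-fold lower (-0.32 to -0.08). Neurog2, at 118 and 124 CPM, Neurod4 and Olig2 had intervals that included 0. The median log2 ratio of the 7 was -0.20, beside 0.02 over all genes tested. In sub-cluster 2, where most Atoh1 was found, its log2 ratio was -0.30. In finer sub-cluster 9 (Otp, Lhx1, Robo3) the neurogenins were lower, Neurog1 from 125 to 55.5 CPM (log2 ratio -1.17, interval -1.62 to -0.72) and Neurog2 from 289 to 155 CPM (-0.90, -1.17 to -0.63). Other neuron sub-clusters went the opposite way, with Neurog2 in finer sub-cluster 5 (Lhx9, Lhx2, Rgs4) at 9 and 46 UMIs (log2 ratio 1.46, interval 0.41 to 2.68), and the difference between sub-clusters was not tested. In sub-cluster 7 Neurog1 was at 0.98 (0.20 to 1.81) and Neurog2 at 0.99 (0.47 to 1.54), the latter -2.02 without called doublets. Haemoglobin genes summed to 7385 CPM in control and 1.41 CPM in mutant neuron-like cells. They lay in the same sub-cluster 7, in which 36.8% and 53.7% of cells were called doublets, and no member's call changed without it.

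Levels over all kept cells combine these classes. Neurog2 was 1.58-fold higher in the mutant library (19.2 and 30.3 CPM), Olig2 1.67-fold and Olig3 1.47-fold higher, while the same genes were not higher by 1.5-fold within any brain class. Brain progenitor-like cells were 13.6% (12.7 to 14.5) of the kept cells in the control library against 22.2% (21.1 to 23.3) in the mutant library. Neuron-like cells were 14.99% (14.1 to 15.9) against 23.9% (22.8 to 25.0). The levels of Neurog2, Olig2 and Olig3 over all cells went in the same direction as these shares, whose part was not tested. Neurod1 went the other way, from 39.4 to 24.7 CPM, and 59.7% of its control UMIs but 11.6% of its mutant UMIs came from glia-like cells. It was also lower within neuron-like cells (log2 ratio -0.28, interval -0.39 to -0.17). In brain progenitor-like cells its interval included 0 (-0.31 to 0.95). Neurog1 was at 23.1 and 23.2 CPM, with 34.1% and 5.85% of its UMIs in glia-like cells and 51.3% and 75.1% in neuron-like cells.

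Along differentiation, Neurog1 and Neurog2 were highest before Neurod1. The 4184 brain progenitor-like and neuron-like cells were ordered by the share of 12 neuron genes among the UMIs of those and 12 progenitor genes, and cut into 5 bins of equal cell number, which are ranges of a score and not cell types. Neurog1 was at 18.0 CPM and 6.59 CPM in bin 1 of the control and mutant library, at 219 and 177 CPM in bin 3, at 74.7 and 76.0 CPM in bin 4 and at 6.63 and 8.19 CPM in bin 5. Neurod1 came later, at 0.750 and 0.320 CPM in bin 1, 102 and 87.0 CPM in bin 3, 167 and 125 CPM in bin 4 and still 74.3 and 68.9 CPM in bin 5. Neurog1 was thus highest in the middle bin and Neurod1 in the one after it, in both libraries. With 10 bins, Neurog1 was highest in bin 6 of both, Neurod1 in bin 7 of the control (211 CPM) but already in bin 6 of the mutant library (153 CPM, against 145 CPM in bin 7). Neurog2 peaked with Neurog1 in bin 3, at 184 and 202 CPM, and Atoh1 was nearly level between bins 3 and 4, at 151 and 160 CPM in the control and 119 and 129 CPM in the mutant library. Neurod4 had 0 and 1 UMIs in bins 1 and 2 together of the control and mutant library, and was at 29.0 and 30.3 CPM in bins 3 and 4 of the control and 27.5 and 30.9 CPM in those of the mutant library. Olig3 lay between 26.3 and 51.5 CPM over the control bins and between 15.1 and 66.2 CPM over the mutant bins. Ptf1a, with 20 and 16 UMIs, had none in bins 4 and 5. Of the bin borders, the upper edge of bin 1 had 703 cells within 0.02 of it, so that border is loosely set.

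**Figure D5:**
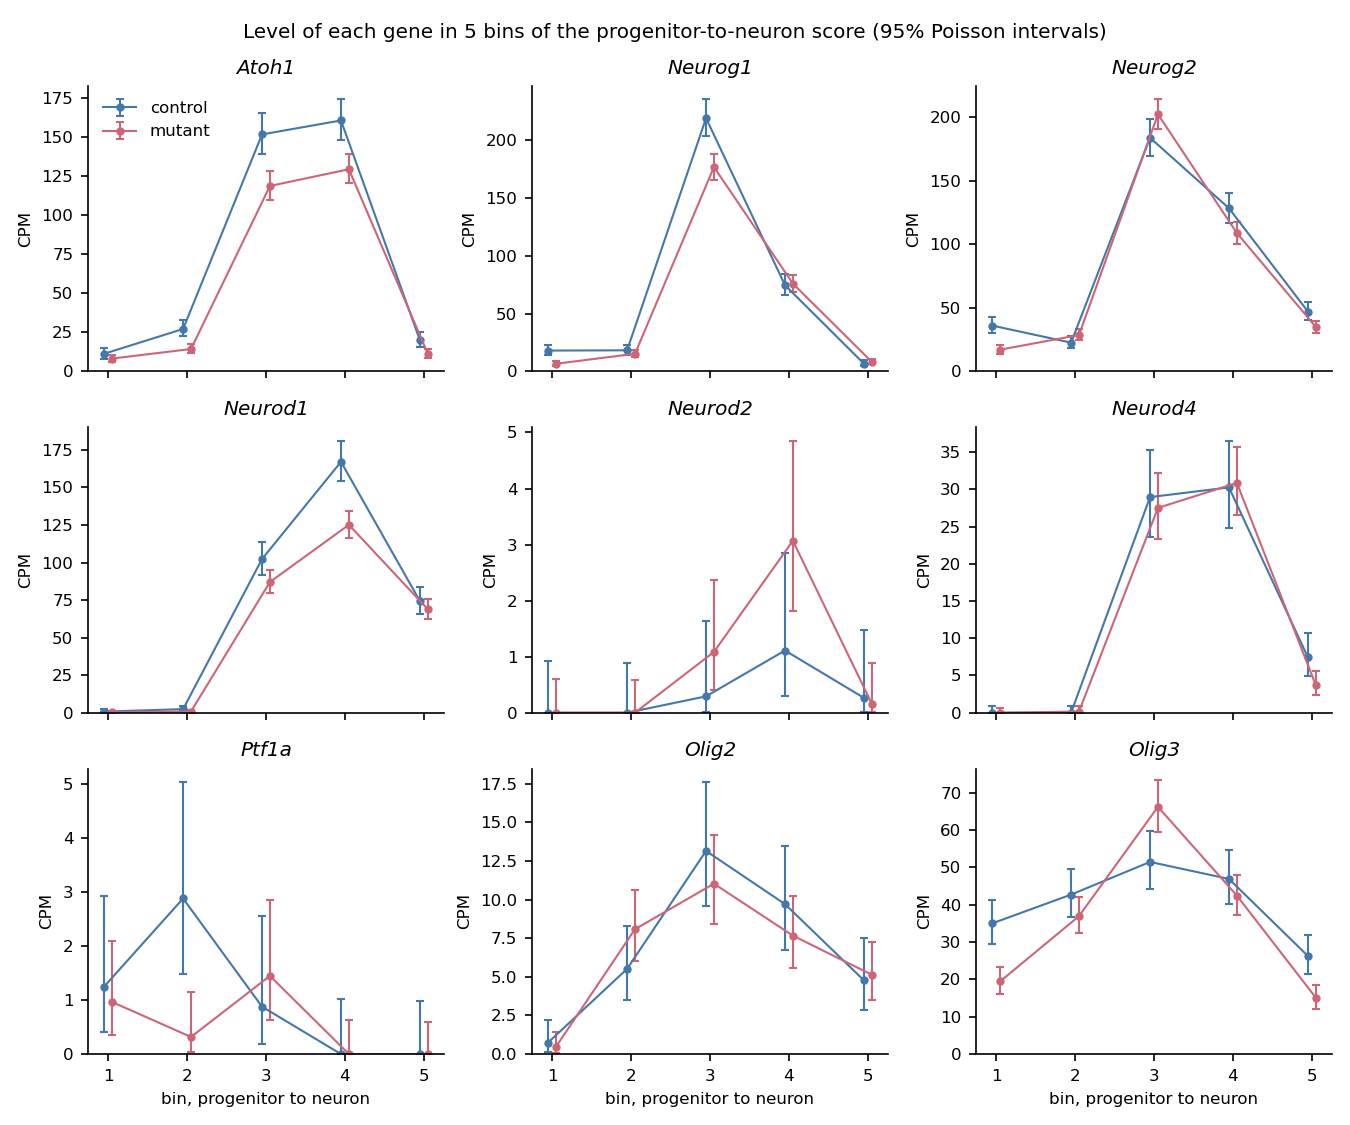
Level of each gene in CPM (vertical axis, from 0, own scale per gene) in 5 bins of the progenitor-to-neuron score (horizontal axis) in the control (blue) and mutant (red) library, with 95% Poisson intervals. Neurog1 and Neurog2 peak in bin 3 and Neurod1 in bin 4 in both libraries.

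Members detected in the same cell fell into a dorsal pair and a neurogenin group. Outside the mesenchyme-like class, Atoh1 was found in 189 of 1868 control cells and Olig3 in 267, and 122 cells had both, 64.6% of the Atoh1 cells and 45.7% of the Olig3 cells. The mutant library gave 151 such cells, 61.9% of the 244 Atoh1 cells and 46.5% of the 325 Olig3 cells. Atoh1 and Neurog2 met in 4 control cells (of 1868) and in 11 mutant cells (of 2774), although Neurog2 was in 14.9% and 14.3% of all those cells. Dorsal Atoh1 cells thus carried Olig3 often and Neurog2 seldom, in both libraries.
Neurog1 and Neurod1 met in 253 control and 239 mutant cells, 64.4% and 58.2% of the Neurog1 cells. Neurod4 lay almost inside the Neurod1 cells, with 165 of its 182 control cells (90.7%) and 133 of its 161 mutant cells (82.6%). The neurogenins were together in 121 and 172 cells, 30.8% and 41.8% of the Neurog1 cells. In the control glia-like cells, Neurog1 and Neurod1 were together in 90 cells and all 67 Neurod4 cells had Neurod1, whereas Neurog2 was found in 3 of the 260 cells, so most Neurog1 cells there had no detected Neurog2. Thinning to 5000 UMIs left 86 control and 98 mutant cells with Atoh1 and Olig3 and 172 and 158 with Neurog1 and Neurod1. Counts are sparse, so a pair that was not seen is no sign that it was absent.

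The partners and inhibitors of the members were nearly level in brain progenitor-like cells. The 3 E-protein partners Tcf3, Tcf4 and Tcf12 had log2 ratios of -0.09, 0.04 and -0.03, and the 4 Id genes, whose products block E proteins, ran from -0.13 for Id4 and -0.09 for Id3 to -0.03 for Id1 and 0.0014 for Id2. Of the Hes and Hey repressors, 4 of 6 had at least 100 UMIs and none was called, with Hes1 at -0.51 and Hey1 at -0.07 lowest and Hes3 at 0.0034 and Hes5 at 0.09 highest. Of the Notch ligands and early targets, 10 of 12 had enough UMIs and none was called, with Mfng lowest at -0.19, Cbfa2t2 next at -0.11, and Ebf3 at 0.22 and Ebf2 at 0.53 highest. Other neural bHLH genes were called higher in 2 of the 5 with enough UMIs, Helt, a midbrain GABA neuron factor, from 10.0 to 28.8 CPM (log2 ratio 1.53, interval 1.21 to 1.86) and Nhlh2 from 3.65 to 8.06 CPM (1.14, 0.59 to 1.73), while Hes6 was at 0.09 (median 0.44 over the 5). Atoh1-lineage genes were split, with Lhx9 called higher (0.77) and Barhl2 called lower (-0.70) among the 6 with enough UMIs, and Pou4f1 at 0.39 and Lhx2 at -0.53 (median -0.28). The median over all 10574 genes tested in the class was -0.0046, and 1.28% of them were called higher and 0.851% lower. Of the genes of the Ptf1a and inhibitory lineage only Lhx5 had enough UMIs, at 6.98 and 3.34 CPM (-1.06), and the Olig3-domain genes Pou4f1 and Lmx1b were at 0.39 and -0.21.

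In neuron-like cells the E-protein partners were again level, between -0.19 for Tcf3 and -0.06 for Tcf4. The 12 Notch ligands and early targets gave no call, from -0.58 for Dll4 and -0.27 for Gadd45g to 0.05 for Mfng and 0.34 for Cbfa2t3. Over all 10788 genes tested in the class, 1.69% were called higher and 1.24% lower. Among the Id genes Id4 was called higher, from 40.8 to 77.4 CPM (log2 ratio 0.92, interval 0.75 to 1.09), with Id3 at -0.27, Id2 at -0.22 and Id1 at -0.12. None of the 3 Hes and Hey genes with enough UMIs was called, Hes1 being at 0.45, Hes5 at 0.21 and Hey1 at -0.29. Genes of the Ptf1a and inhibitory lineage all lay above 0 in the 6 of 8 with enough UMIs, with Slc32a1, the vesicular GABA transporter, from 20.4 to 33.3 CPM (0.71) and Gad1, which makes GABA, from 14.7 to 22.2 CPM (0.59) called higher, and Lhx1 and Lhx5 at 0.19 and 0.25. Inhibitory brain neuron-like cells were 0.800% and 2.52% of all cells, in the same direction, and their part was not tested. The 8 Atoh1-lineage genes gave no call, from -0.46 for Pou4f1 and -0.31 for Barhl1 to 0.07 for Mab21l1 and 0.15 for Barhl2. Among 10 other neural bHLH genes Atoh7, a retinal ganglion cell factor, was called higher (1.29, from 2.88 to 7.06 CPM), Tal1 was at 0.55, and Helt and Bhlhe23 were lowest at -0.55 and -0.27. Sensory neurogenesis genes were called lower in 4 of 7, among them Prph (-1.40) and Tlx3 (-1.08), and Isl1 and Eya2 were at -0.33 and -0.39 (median -0.72, beside 0.02 over all genes of the class and 0.47 for the 6 inhibitory genes). Tlx3 was also the only call of the 4 Olig3-domain genes with enough UMIs, where Pou4f1 was at -0.46 and Lmx1b at 0.25.

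In glia-like cells, which were added to the related lists after the values were seen, the genes around Neurog1 and Neurod1 were lower as well. All 6 sensory neurogenesis genes with enough UMIs were called lower, among them Isl1 from 460 to 96.3 CPM and Pou4f1 from 275 to 30.0 CPM. Over all 8018 genes tested in the class, 5.00% were called lower and 6.27% higher. Of the Notch ligands and early targets 8 of 9 were called lower, including Insm1 (log2 ratio -2.42), Gadd45g (-2.30) and Mfng (-2.60), and the exception was Cbfa2t2 (-0.51). All 4 other neural bHLH genes with enough UMIs were called lower, among them Nhlh1 (-2.73), Nhlh2 (-2.51) and Hes6 (-1.81). Their median of -2.16 and that of the Notch ligands and early targets, -2.08, stood beside 0.03 over all genes of the class. The Atoh1-lineage list gave 2 of 2 called lower and the Olig3-domain list 2 of 3, through Pou4f1, Nhlh1 and Tlx3, and no gene of the Ptf1a and inhibitory list had enough UMIs. The E-protein partners were not called, at -0.03 to 0.20, whereas Id2 (0.94) and Hey2 (1.21, from 63.1 to 146 CPM) were called higher and Heyl (-0.62) lower. The share of sensory-like cells, 29.6% and 3.54% of the class, moved with these lists, and its part was not tested.

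Genes whose pattern was most like a member's over the 21 points of sub-cluster and library with at least 30 cells were, for Neurod1, Ppp1r14a (Pearson r = 0.97), Gfra1 (0.92) and Nhlh1 (0.87), and for Neurod4, Ppp1r14a (0.88), Syt2 (0.87) and Mfap4 (0.87). For Neurog1 they were Mybl1 (0.83), Ly6e (0.80) and Sapcd1 (0.78), for Neurog2 Rhbdl3 (0.85) and C230035I16Rik (0.82), and for Olig2 Nkx2-1 (0.84), 2610027F03Rik (0.76) and Sfta3-ps (0.76). Atoh1 was nearest to Hoxa5 (0.89), Hoxa4 (0.89) and Hoxd4 (0.88), and Olig3 to Hoxc5 (0.91), Hoxa4 (0.90) and Msx3 (0.89), so the dorsal genes both sat beside hindbrain Hox genes. Ptf1a (Nppc, 0.78, Zmynd11, 0.73, and Ccdc124, 0.72) and Neurod2 (B4galt3, 0.73, Qsox1, 0.68, and Pex19, 0.68) rested on 36 and 33 UMIs, too few to read. These are descriptions over points that share libraries and cells, on log2(CPM + 1), and 11312 genes were ranked.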

How the data were processed

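Sorted GFP+ cells of 1 control and 1 mutant library (10x 3′ chemistry) were measured. The authors aligned the reads to mm10 with Cell Ranger (6.0.0 per the file headers) and deposited raw UMI counts per gene and barcode, which are used as deposited, with no column left out. As in the study, barcodes with at most 10% mitochondrial UMIs and 200 to 7500 genes were kept, and the libraries were integrated on Seurat anchors (Seurat 5.3.0, R 4.3.3, 2000 variable genes, 30 dimensions; the submitters' processing notes name Seurat 4.3.0). The 9 members, Tfap2a, Tfap2b, Xist, Tsix and Y-linked genes were kept out of the clustering genes. Resolution 0.05 gave 3 classes with progenitors and neurons joined, so the lowest step that parted them, 0.06, was used, and the naming rule (best of the marker lists with at least 3 detected genes) was settled after the clusters were seen. Cells outside the mesenchyme-like class were clustered again in 20 dimensions at resolution 0.2, and at 0.4 for the finer step. Sub-clusters whose leading genes went against a name are given by those genes.

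UMIs were summed per class and library and divided by the class total (CPM, not scaled by length, since 3′ counts give 1 tag per molecule). Intervals are exact (Poisson for levels, Clopper-Pearson for shares, conditional binomial for ratios) at 95%, and floors take 3 counts. Genes with at least 100 UMIs over both libraries and a 1.5-fold difference were called. Intervals and the call were run on simulated class sums drawn as Poisson counts, the assumption behind the intervals. Such sums hold no spread between cells or embryos, so the simulation cannot show that the intervals cover it. Doublets were called with Scrublet in scanpy 1.11.5 (1.62% of control and 2.97% of mutant cells) and kept. TMM factors came from edgeR 4.0.16. Sequences were read from RefSeq tables and positions from GENCODE M21.

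All 9 members are named, with the 3 genes most like each and, per related list, the 2 highest and 2 lowest ratios, of which further genes were named after their values were seen. Some genes that these rules or the clusters' leading genes would name are not reported here. The members and lists were chosen with earlier results of these data known. Alternatives were all barcodes, doublets removed, no integration, members in the clustering, a higher resolution, TMM, equal weight per cell, thinning to 5000 UMIs, the 5 highest cells left out, 2 UMIs as detection, 10 axis bins and a minimum of 30 UMIs.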

Additional observations from a re-analysis of the deposited data

Results flagged for a closer look

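For 3 members the mutant over control ratio had opposite signs in cell classes where they had at least 100 UMIs, with counting intervals on either side of 0. With no such minimum Neurod4 did so too, at 4.03 (1.43 to 9.39) in brain progenitor-like cells, from 1 to 26 UMIs, against -2.72 in glia-like cells. The difference between classes was not tested, since each group had 1 library. Atoh1 had a log2 ratio of 1.11 in mesenchyme-like cells, from 43 to 70 UMIs, against -0.42 in neuron-like cells. Neurog1 had 0.81 in mesenchyme-like cells, from 60 to 79 UMIs, against -0.40, -0.20 and -1.96 in the brain progenitor-like, neuron-like and glia-like classes. Neurog2 had 0.53 in mesenchyme-like cells, from 68 to 74 UMIs, against -0.61 in brain progenitor-like cells. All mesenchyme-like levels were under 2 CPM, and the 10 highest cells held 70.3% to 86.0% of those UMIs. The summed level of the 7 neuron markers in mesenchyme-like cells was 46.6 CPM in the control and 81.9 CPM in the mutant library, in the same direction, and its part was not tested.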

How the results depend on the processing

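No paired analysis was possible because each group had 1 library. Of the member ratios per class, class shares and counts of related genes recomputed under alternatives, 181 values stayed within their counting interval or 1.5 times and 12 moved further, and of the other values 461 stayed, 154 moved and 2 reversed. With the 5 highest cells of each library left out, the log2 ratio in brain progenitor-like cells became 0.17 for Atoh1, -0.32 for Neurog2, which ended its call, and 0.45 for Olig2, that in neuron-like cells 0.62 for Olig2, and that in glia-like cells -2.79 for Neurog1, -4.26 for Neurod1 and -5.14 for Neurod4. Cells thinned to 5000 UMIs gave -0.55 for Atoh1 in neuron-like cells and -2.60 for Neurog1 and -3.54 for Neurod4 in glia-like cells. A minimum of 30 in place of 100 UMIs raised the related genes called higher from 3 to 7 in brain progenitor-like and from 4 to 7 in neuron-like cells, since more genes were tested. Reversed were Neurod4 in glia-like sub-cluster 3 and Neurog2 in sub-cluster 7. Neurod4 became 0.75 at the finer step, where the sensory-like cells stood apart. That value rested on 2 control and 3 mutant UMIs, too few to read. Neurog2 became -2.02 without called doublets, for which the cause was not tested. The glia-like differences of Neurod1, Neurog1 and Neurod4 kept their direction and call under 10 alternatives each, between -4.26 and -2.46, -2.79 and -1.96, and -5.14 and -2.72. Leaving out sub-cluster 7 and resolution 0.05, both added after the data were seen, changed no call. Depth limits Ptf1a and Neurod2, which had at most 27 UMIs in a library.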

Other observations

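Neurod2, a gene of late neuronal differentiation, had 6 UMIs in 843 control and 25 UMIs in 1335 mutant neuron-like cells, 0.641 CPM (0.235 to 1.40) and 1.68 CPM (1.09 to 2.48). Of the mutant UMIs, 8 lay in the Foxa2 and Sim1 sub-cluster 6, where the control library had 0 in 83 cells. In the mutant library 20 of the 23 Neurod2 cells also had Neurod1 and 17 had Neurog1.

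Olig2 in the Nkx2-1 sub-cluster 5 had 39 control and 79 mutant UMIs (log2 ratio 0.80, interval 0.23 to 1.39), while in progenitor sub-cluster 0 it had 33 and 24 UMIs, a ratio of -1.21 (-2.03 to -0.41). Neurog1 in the Msx3 progenitors of sub-cluster 4 had 42 and 18 UMIs, a ratio of -1.70 (-2.59 to -0.88), beside Olig3 at 0.21 and Atoh1 at 0.20 in the same cells. These values cover counting error only and have no replicate.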
